A study of Mus musculus with 12 samples.

Results

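Endothelial junction genes encode the proteins that hold neighbouring vessel-lining cells together, and 9 of them are described here: Cldn5, Ocln, F11r, Jam2, Jam3, Esam, Tjp1, Cdh5 and Pecam1. They were chosen by symbol from the 32285 genes of the deposited feature lists, and all 9 were found. Their UMI counts (UMI, a tag that marks 1 captured molecule) were read in 12 single-cell libraries from mouse lymph node and compared between arterial, capillary, venous, high endothelial venule (HEV) and lymphatic endothelial cells. Each library stands for 1 genotype under 1 treatment in 1 sorted fraction. All mice, by the submitters' labels, were C57BL/6, 7 to 10 weeks old, carried the ATG12 fl/fl allele and received tamoxifen 5 times. The libraries labelled Cre-positive also carried CDH5 CreER, a tamoxifen-activated Cre recombinase driven by the promoter of Cdh5, itself one of the 9 genes; those labelled Cre-negative did not. Atg12 is needed to build autophagosomes, the vesicles of autophagy. Vehicle mice received acetone and olive oil on the abdomen, and the others 50 ul of 4% oxazolone, a skin sensitiser that inflames the draining node, 3 or 7 days before the nodes were taken. The CD31 fraction is what CD45 microbeads left behind, sorted further by flow cytometry, and the CD45 fraction is what they held. With 1 library per group there is no replicate of any group, so treatment was tested across both labels and label across the 3 times. How many animals a library pools is not given in the sources used here, and p-values measure only the spread between these 6 CD31 libraries. That spread has 2 residual degrees of freedom, is estimated in part across genes, and includes any difference in treatment effect between the labels.

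Endothelial junctions have tight and adherens components that lie side by side along the cell border. Claudins and occludin cross the membrane and seal the gap between cells, junctional adhesion molecules (JAMs) and ESAM are immunoglobulin-type adhesion proteins at the same border, and ZO-1 ties the membrane proteins to actin inside the cell. VE-cadherin carries the adherens junction, and PECAM-1 (CD31) sits along the border and takes part in leukocyte passage. In lymph nodes, lymphocytes leave the blood between or through the tall cells of HEVs, and the study's stated interest is autophagy in this endothelium during inflammation.

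The cell classes were clusters named from marker genes, with the 9 genes and the wider junction lists kept out of both the clustering and the markers. In the order vehicle, day 3 and day 7, Cre-negative before Cre-positive at each time, which is the order of every list of 6 values below, the CD31 libraries gave 280, 301, 413, 449, 615 and 232 HEV-like cells. Arterial-like cells numbered 426 to 864 per library, capillary-like cells 541 to 1688, lymphatic-like cells 473 to 1148 and venous-like cells only 21 to 66. A further 661 cells were tip-like, and 11174 cells with endothelial markers met no class and stayed unnamed. Median UMIs per cell ran from 9100 to 11315 in HEV-like cells and from 1864 to 2808 in capillary-like cells, so levels are given as CPM, the UMIs of a gene scaled to the same total in each class and library, without correction for gene length. The 6 CD31 libraries held 45437986 to 76186801 UMIs. Any 2 libraries shared at most 31 cell barcodes, and at most 0.38% of the smaller one. The CD45 fraction held 71 endothelial-like cells in all and was not divided into classes.

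The classes differed in how cleanly their own marker lists set them apart. Summed over 8 HEV markers, HEV-like cells held 15220 to 84934 CPM and arterial-like cells 507 to 1170. Arterial-like cells held 6327 to 8500 for the 9 arterial markers but also 7353 to 15637 for the 7 capillary markers, against 57391 to 71481 in capillary-like cells. Venous-like cells held 6489 to 8285 for the venous list and 7837 to 10940 for the capillary list. Haemoglobin and other erythroid markers reached 1829 in arterial-like cells of the vehicle Cre-positive library and 4037 in capillary-like cells of the day 3 Cre-positive library. The vehicle Cre-positive library stood apart in sex: 0.33% of its HEV-like cells had UMIs of Xist and no Y-linked gene, and 83.1% had Y-linked UMIs alone. In the other 5 libraries, 30% to 55.2% of HEV-like cells had Xist alone and 27.2% to 50.4% Y-linked UMIs alone, so both sexes were present. The share with Y-linked UMIs alone was 50.4% and 83.1% in vehicle and 32.45% and 44.8% at day 3. The sex mix thus also differed between these times. Atg12 itself stood at 46.3, 48.7, 44.2, 51.0, 42.3 and 42.7 CPM in HEV-like cells. These are 3-prime tags, and whether they lie in the deleted part is not given, so they do not check the labels.

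Cldn5 divided the blood endothelium most sharply. It encodes claudin-5, the main claudin of endothelial tight junctions, and lies at chr16:18776847-18778262 (GRCm38, plus strand). In capillary-like cells it was read at 1556, 1039, 673, 741, 1479 and 1703 CPM, and in lymphatic-like cells at 1264, 1134, 766, 1150, 1104 and 1164. These top classes did not separate, with capillary-like cells ahead in 3 of 6 libraries (means 1198 ± 441 and 1097 ± 171, SD, n = 6). Arterial-like cells followed at 820, 897, 496, 449, 808 and 620, below lymphatic-like cells in all 6 libraries. HEV-like cells held only 40.3, 36.5, 20.5, 26.2, 36.2 and 38.8, a range far under that of the arterial-like class. Venous-like cells were lower still in all 6 libraries, at 0 to 35.4 from 27 UMIs in total; the 0 was 21 cells of the day 7 Cre-positive library, which allows a share of cells with a UMI of up to 14.3%. B cell-like cells, a class not known to make claudin-5, held 1.77 to 9.55 CPM, so the HEV-like range lay above theirs and the venous-like range overlapped it. After thinning every cell to 1000 UMIs, a Cldn5 UMI was seen in 0.73% to 4.74% of HEV-like cells, in 44.8% to 71.7% of capillary-like cells and in 0.24% to 1.13% of B cell-like cells.

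Ocln, which encodes occludin (chr13:100496507-100552718, minus strand), was close to unread in every endothelial class. Capillary-like cells gave 0 UMIs in all 6 libraries, which allows shares of cells with a UMI of up to 0.178% to 0.554% by library (3 counts of the cells). Arterial-like cells gave 1, 2, 6, 1, 2 and 1 UMIs, HEV-like cells 0, 0, 2, 2, 0 and 1, lymphatic-like cells 0, 1, 0, 0, 1 and 8, and venous-like cells 0, 3, 2, 0, 0 and 0. The highest endothelial level was 10.6 CPM, from 3 UMIs. Dendritic cell-like cells of the CD31 fraction held 3.23 to 11.5 CPM. Occludin transcript was therefore not measurable at this depth in these endothelial cells, and the gene passed the expression filter of no comparison.

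The sequences just before the start sites of this well-read and this barely read tight junction gene are shown for reference, from RefSeq (GRCm38.p6), which matched 4 of the 9 genes in the table used. Each line is 250 bases, written 5′ to 3′ on the gene's strand. Capitals mark GGAA, the core that ETS factors such as Erg bind, and CCAAT, the box bound by NF-Y, on either strand (TTCC and ATTGG on the reverse).
Cldn5, chr16:18776597-18776846, plus strand: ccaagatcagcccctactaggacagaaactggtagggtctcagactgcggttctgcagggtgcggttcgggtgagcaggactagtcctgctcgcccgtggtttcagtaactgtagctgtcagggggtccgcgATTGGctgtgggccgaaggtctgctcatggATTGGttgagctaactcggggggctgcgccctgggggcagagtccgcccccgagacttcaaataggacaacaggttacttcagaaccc
Ocln, chr13:100552719-100552968, minus strand: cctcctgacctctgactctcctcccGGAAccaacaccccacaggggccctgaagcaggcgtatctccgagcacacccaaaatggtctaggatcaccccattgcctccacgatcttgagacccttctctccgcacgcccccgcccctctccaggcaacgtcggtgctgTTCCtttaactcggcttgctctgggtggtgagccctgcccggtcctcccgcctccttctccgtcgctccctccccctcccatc
The Cldn5 window held no GGAA and 2 CCAAT boxes, both in the ATTGG orientation, 118 and 88 bases before the start. The Ocln window shown held 2 GGAA cores, 225 and 83 bases before the start, and no CCAAT box. RefSeq lists a second Ocln start, whose window (chr13:100552499-100552748, not shown) held 1 GGAA core and 1 CCAAT box, so the difference in CCAAT from Cldn5 depends on the start taken. Of 32841 promoter windows of this length, 93.5% held GGAA and 33.9% held CCAAT on either strand, and GC content was 59.6% for the Cldn5 window and 64% for the Ocln window shown. The motifs do not overlap each other, and a match is a description of letters, not a bound site.

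Within the JAM family, Jam2 was lowest in lymphatic-like cells and Jam3 highest there, among the 5 classes. Jam2 (JAM-B, chr16:84774123-84825928), an adhesion molecule that pairs with JAM-C, was read at 588, 727, 773, 735, 684 and 551 CPM in capillary-like cells and at 826, 746, 624, 483, 701 and 653 in venous-like cells. The order of these classes held in only 2 of 6 libraries. Arterial-like cells held 321 to 439 and HEV-like cells 102, 150, 108, 119, 109 and 109. Lymphatic-like cells held 4.83, 3.30, 2.55, 7.97, 2.52 and 1.79, and the capillary-like mean was 177 times theirs. With no doublet removal the lymphatic-like mean was 12.3 in place of 3.83. The values of 4.83 and 7.97 are from the vehicle Cre-negative and day 3 Cre-positive libraries, where the barcodes removed were shallower than those kept. The part of remaining doublets in them was not tested. B cell-like cells held 1.69 to 2.88, a range that overlaps the lymphatic-like one.

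Jam3 (JAM-C, chr9:27097384-27155421, minus strand), which binds JAM-B, ran the other way. It was highest in lymphatic-like cells, at 421, 619, 392.2, 349, 575 and 480, and next in HEV-like cells, at 186, 274, 113, 129, 180 and 191. Capillary-like cells held 80.4 to 122, arterial-like cells 39.6 to 93.8 and venous-like cells 15.0 to 51.9 from 44 UMIs. Lymphatic-like cells were above HEV-like cells in all 6 libraries, and the lymphatic-like mean of 473 ± 106 (SD, n = 6) was 15.5 times the venous-like mean. A transcript antisense to Jam3, Gm48796, overlaps it, and without known strand handling its reads cannot be told apart.

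F11r (JAM-A, chr1:171437535-171464603), the JAM shared by epithelium, endothelium and leukocytes, varied least of the 8 measurable genes. Its class means ran from 175 in HEV-like cells to 358 in lymphatic-like cells, 2.04 times apart. HEV-like cells held 175, 186, 171, 178, 159 and 185, and lymphatic-like cells 368, 346, 343, 342, 348 and 401, with no overlap. Capillary-like and arterial-like cells lay between, at 308 ± 13.8 and 302 ± 16.0 (SD, n = 6). Esam (chr9:37528078-37538319), an adhesion molecule of endothelial cells and platelets, was a blood vessel gene in these data. Capillary-like, venous-like and arterial-like cells held means of 602, 566 and 560 with overlapping ranges, HEV-like cells 357, 319, 360, 367, 312 and 398, and lymphatic-like cells 34.5, 33.2, 29.5, 47.1, 24.8 and 26.8. The low lymphatic-like values were still above the 0.9 to 4.5 of B cell-like cells. Their highest, 34.5 and 47.1, are from the same libraries as for Jam2, and the part of remaining doublets was not tested.

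Tjp1 (chr7:65296165-65527781, minus strand) encodes ZO-1, the scaffold under the tight junction. Capillary-like cells held 584, 631, 488, 546, 728 and 553, and HEV-like cells 195, 167, 172, 164, 156 and 175, a difference in means of 3.43 times. Arterial-like, venous-like and lymphatic-like means were 343, 301 and 263. HEV-like cells had the lowest mean of the 5 classes for Tjp1 and F11r alike, though for F11r their range overlapped that of venous-like cells.

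Cdh5 (chr8:104101625-104144511) encodes VE-cadherin. It kept 1 order of classes in all 6 libraries at each step: capillary-like at 1500, 1672, 1345, 1579, 1565 and 1602, then arterial-like at 1000 to 1198, venous-like at 661 to 795, HEV-like at 536, 726, 439, 568, 527 and 592, and lymphatic-like at 475, 470, 414, 523, 427 and 551. The HEV-like and lymphatic-like ranges overlapped, while the capillary-like mean was 3.24 times the lymphatic-like mean. An antisense transcript, Gm29682, overlaps Cdh5. The Cre-positive libraries carry a transgene under the Cdh5 promoter, and whether its transcript adds counts to Cdh5 was not tested.

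Pecam1 (chr11:106654217-106750628, minus strand) encodes CD31, the protein after which the fraction is named, so its level in these cells may also reflect the sort. It was highest in venous-like cells, at 1908, 1902, 1506, 1288, 1807 and 2025, and lowest in lymphatic-like cells, at 485, 527, 472, 447, 498 and 525. HEV-like and arterial-like cells did not separate, with means of 1309 ± 222 and 1298 ± 133 (SD, n = 6) and the HEV-like value higher in 3 of 6 libraries. Pecam1 was also read in lymphocytes, at 204 to 326 in B cell-like and 107 to 203 in T cell-like cells of the CD31 fraction. All these class differences are descriptions, since the classes were drawn from the same cells.

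**Figure D1:**
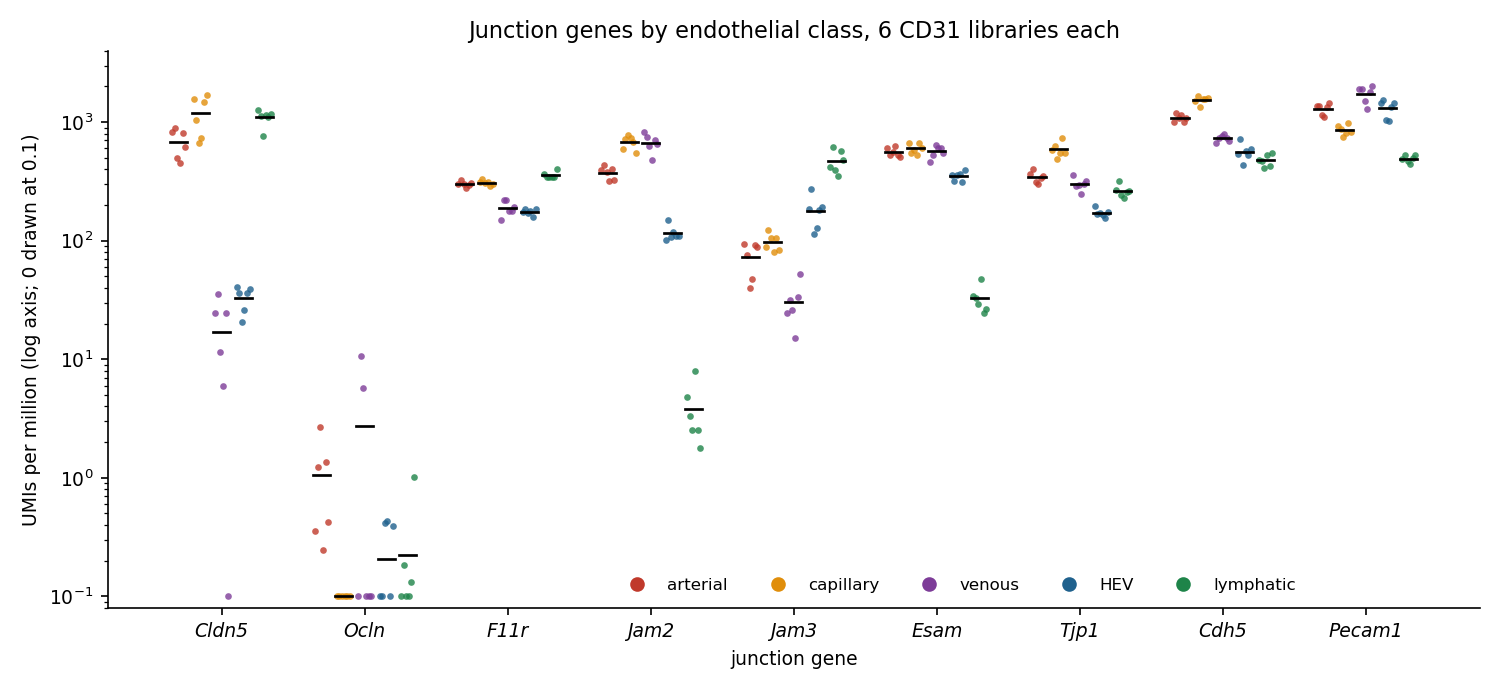
CPM (log axis) of the 9 junction genes in 5 endothelial classes; each point is 1 of 6 CD31 libraries and each bar the mean. Cldn5 lies at 20.5 to 40.3 in HEV-like cells against 766 to 1264 in lymphatic-like cells, while Jam2 and Esam are lowest in lymphatic-like cells.

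Oxazolone at day 3 was the comparison in which junction genes changed. Jam3 fell in HEV-like cells and in arterial-like cells, and Cldn5 fell in arterial-like cells. In HEV-like cells the Jam3 libraries stood at 186 and 274 CPM in vehicle, 113 and 129 at day 3, and 180 and 191 at day 7. The day 3 values did not overlap either other time, and the log2 change against vehicle was -0.92 (SE 0.18, adjusted p = 0.0329, edgeR's quasi-likelihood test with Benjamini-Hochberg adjustment over all genes tested). Of 8 junction genes tested in this class, Jam3 alone passed, where 404 of 10987 genes (3.68%) were called, 198 higher and 206 lower. The Jam3 call was lost when either day 3 library was left out (adjusted p = 0.202 without Cre-negative and 0.38 without Cre-positive, edgeR), while the log2 change stayed between -0.94 and -0.88. In cells with Y-linked UMIs alone, the log2 change was -0.57 (adjusted p = 0.248, edgeR).

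Marker lists of other cells moved with this result. The 7 pericyte and smooth muscle markers summed to 26.5 and 178 CPM in HEV-like cells of the vehicle libraries and to 6.49 and 11.9 at day 3, none of them at 0 in every library. Stromal-like cells of the CD31 fraction held Jam3 at 53.2 to 122 CPM. Without the vehicle Cre-positive library, which leaves 1 vehicle library, the Jam3 log2 change was -0.66 (adjusted p = 0.0156, edgeR). Venous markers summed to 3744 and 3791 in vehicle and 5417 and 4110 at day 3, and cycling markers to 35.1 and 26.4 against 64.5 and 77.8. The HEV markers themselves also varied between libraries of this class, over the range given above. The part of these lists in the result was not tested.

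Other HEV junction genes came near. Pecam1 stood at 1460 and 1539 in vehicle, 1045 and 1026 at day 3 and 1331 and 1453 at day 7, and did not pass (log2 change -0.54, SE 0.16, adjusted p = 0.0782, edgeR). Cldn5, at 40.3 and 36.5 in vehicle against 20.5 and 26.2, did not pass either (-0.73, SE 0.19, adjusted p = 0.0622, edgeR). For Jam3, Pecam1 and Cldn5 the day 3 libraries lay below both vehicle libraries; 27.6% of all genes tested in HEV-like cells did so. Cdh5, at 536 and 726 in vehicle and 439 and 568 at day 3, overlapped (log2 change -0.33, SE 0.17, adjusted p = 0.25, edgeR). Esam, Jam2, F11r and Tjp1 had log2 changes of 0.10, -0.15, -0.05 and -0.11, each smaller than its SE. Of the 8 genes tested, Esam alone lay above both vehicle libraries, where 29.4% of all genes were.

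In arterial-like cells, Jam3 was 93.8 and 75.3 in vehicle, 39.6 and 47.3 at day 3, and 92.5 and 88.0 at day 7, with day 3 below all other libraries (log2 change -0.88, SE 0.17, adjusted p = 0.0306, edgeR). Cldn5 was 820 and 897, then 496 and 449, then 808 and 620 (log2 change at day 3 -0.80, SE 0.17, adjusted p = 0.0374, edgeR). These were 2 of 8 junction genes tested, where 207 of 10514 genes (1.97%) were called, 131 higher and 76 lower. At day 3, 6 of the 8 genes lay below both vehicle libraries, against 30.8% of all genes tested, and none lay above both, against 20.4%. The median log2 change of the 8 was -0.20 and that of all genes 0. Tjp1, Pecam1, Jam2 and F11r were the other members lying below, with log2 changes of -0.25, -0.21, -0.19 and -0.06 and adjusted p-values of 0.373 to 0.871 (edgeR).

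The arterial calls rested on few libraries. Neither gene passed without the day 3 Cre-negative library or without either day 7 library (adjusted p of 0.0908 to 0.212 for Jam3 and 0.108 to 0.151 for Cldn5, edgeR). Without the day 3 Cre-positive library Jam3 passed (0.032, edgeR adjusted p) and Cldn5 did not (0.163, edgeR adjusted p). DESeq2 called Cldn5 but not Jam3 (adjusted p = 0.0916). In cells with Y-linked UMIs alone the log2 changes were -0.71 for Jam3 and -0.43 for Cldn5, and neither passed. Erythroid markers in this class summed to 24.6 and 1829 in vehicle and 61.4 and 1.23 at day 3. Cycling markers summed to 8.21 and 1.22 in vehicle and 15.6 and 19.96 at day 3, and tip-like markers to 168 and 218 against 243 and 362; the part of these lists in the result was not tested.

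Capillary-like cells held a Cldn5 difference of the same size that did not pass: 1556 and 1039 in vehicle, 673 and 741 at day 3, and 1479 and 1703 at day 7 (log2 change -0.84, SE 0.18, adjusted p = 0.0683, edgeR). Here 37 of 10670 genes (0.347%) were called. Cldn5, Tjp1, Pecam1 and F11r, 4 of the 8 genes tested, lay below both vehicle libraries at day 3, as 22.5% of all genes did. The change was -0.44 without the vehicle Cre-negative library and -1.20 without the vehicle Cre-positive library, where it passed (adjusted p = 8.88e-05, edgeR). Erythroid markers summed to 104 and 224 in vehicle and 587 and 4037 at day 3, and their part in the difference was not tested. Jam3 in capillary-like cells was 88.2, 122, 106, 80.4, 105 and 83.4, with no separation by time (log2 change -0.14, adjusted p = 0.908, edgeR). Jam2 lay above both vehicle libraries at day 3, as 17% of all genes did, with a log2 change of 0.22 (SE 0.16, adjusted p = 0.779, edgeR).

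In RNA outside cells of the CD31 libraries, both day 3 values lay below those of vehicle and day 7 for Cldn5 and Jam3. The same held for Pecam1, Tjp1 and F11r, but not for Cdh5, Esam, Jam2 or Ocln. In barcodes with at most 100 UMIs, Cldn5 stood at 509 and 430 CPM in vehicle, 236 and 226 at day 3, and 544 and 590 at day 7, and Jam3 at 143 and 228, 114 and 92.2, and 264 and 219. With free RNA subtracted as planned, at a share set by haemoglobin and antigen receptor genes, the log2 changes were -0.92 for HEV Jam3, which passed (adjusted p = 0.031, edgeR), and -0.19 for arterial Jam3 and -0.89 for arterial Cldn5, which did not (adjusted p = 0.915 and 0.283, edgeR). With a share set by antigen receptor genes alone, chosen after seeing the data, the log2 changes were -0.92 for HEV Jam3, -0.89 for arterial Jam3 and -0.79 for arterial Cldn5, and all 3 passed (edgeR). The part of free RNA in these results was not tested further.

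Lymphatic-like and venous-like cells gave no junction gene past the test at day 3. In lymphatic-like cells 0 of 12688 genes (0%) passed in edgeR; DESeq2 called 4, and the edgeR p before adjustment was under 0.05 for 651. Lymphatic Cldn5 was 766 in the day 3 Cre-negative library against 1104 to 1264 in the other 5 (log2 change -0.31, SE 0.32, adjusted p = 0.997, edgeR), and lymphatic Jam3 was 392.2 and 349 at day 3 against 421 and 619 in vehicle (-0.45, SE 0.30, adjusted p = 0.997, edgeR). Jam3, Tjp1, Pecam1 and F11r lay below both vehicle libraries and no member above, against 17.9% and 13.5% of all genes. In venous-like cells 6 of 5292 genes (0.113%) were called by edgeR and 36 by DESeq2, and 6 junction genes could be tested. Venous Pecam1, at 1908 and 1902 in vehicle and 1506 and 1288 at day 3, had a log2 change of -0.40 (SE 0.26, adjusted p = 0.51, edgeR). Pecam1 and Jam2 lay below both vehicle libraries and Cdh5 and Esam above, against 27.3% and 23.5% of all genes. In the unnamed endothelial cells, Jam3 was 360 and 457 in vehicle, 212 and 186 at day 3, and 426 and 302 at day 7, given as values only.

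**Figure D2:**
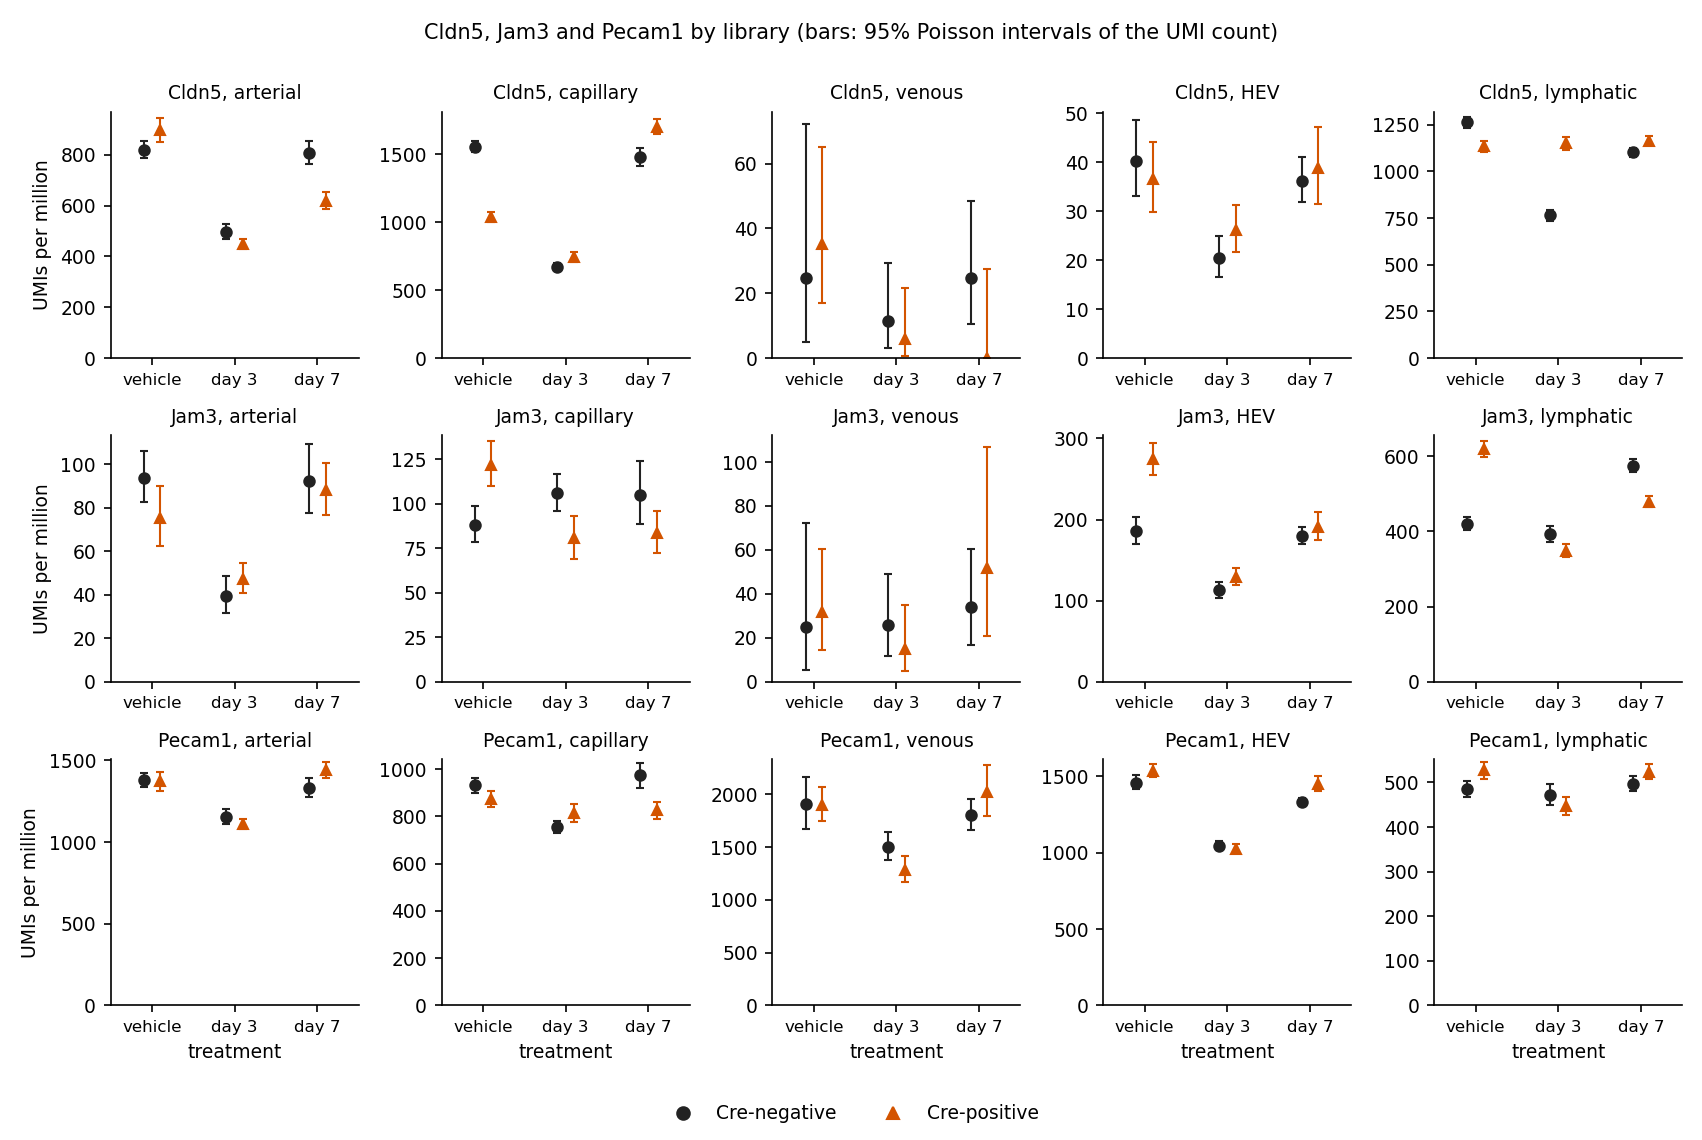
CPM of Cldn5, Jam3 and Pecam1 in 5 endothelial classes by treatment, with Cre-negative (circles) and Cre-positive (triangles) libraries; bars are exact Poisson intervals at 95%. In arterial-like and HEV-like cells the day 3 points of Jam3 lie under all others, at 39.6 and 47.3 and at 113 and 129.

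**Figure D3:**
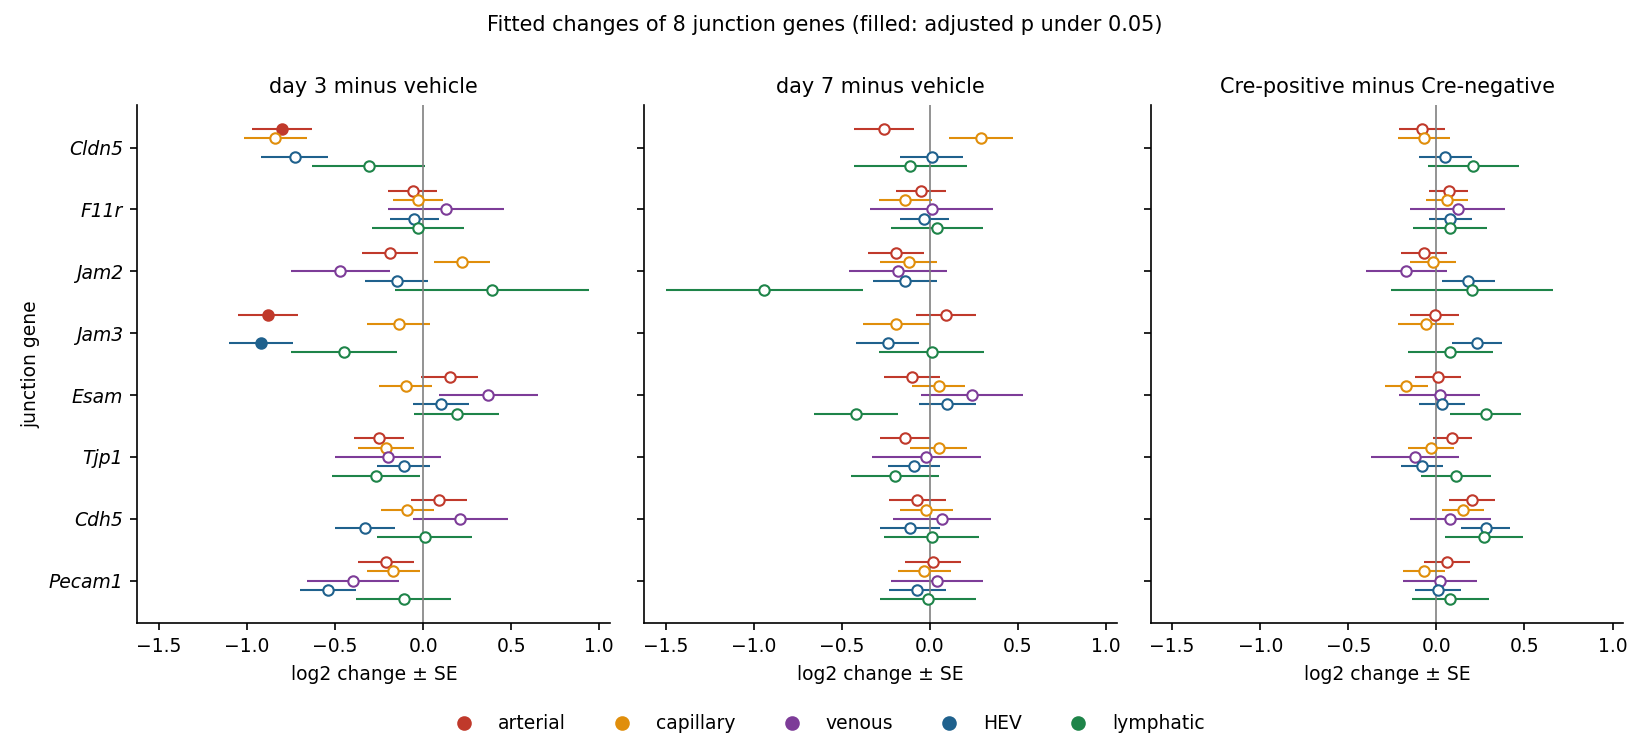
Fitted log2 changes with SE of 8 junction genes in 5 endothelial classes, without Cldn5 and Jam3 in venous-like cells, which could not be tested. Comparisons are day 3 against vehicle, day 7 against vehicle and Cre-positive against Cre-negative, and filled points passed the test. The filled points are Jam3 in HEV-like (-0.92) and arterial-like (-0.88) cells and Cldn5 in arterial-like cells (-0.80), all at day 3.

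Whether the day 3 change differed between vessels was tested directly for HEV-like against capillary-like and HEV-like against lymphatic-like cells, with the library as a block. The fitted Jam3 change was lower in HEV-like than in capillary-like cells (log2 difference -0.78, SE 0.22), which did not pass (adjusted p = 0.0975, edgeR), where edgeR called 1.3% of 10830 genes (141, against 32 by DESeq2). Against lymphatic-like cells the Jam3 difference was -0.50 (SE 0.22, adjusted p = 0.472, edgeR), where edgeR called 0.165% of 12142 genes (20, against 32 by DESeq2). For Cldn5 the differences were 0.09 (SE 0.25, adjusted p = 0.929, edgeR) and -0.44 (adjusted p = 0.598, edgeR). No junction gene passed either test for day 3, day 7 or label. Of all genes, the label test called 0.0831% against capillary-like and 0.0247% against lymphatic-like cells, and the day 7 test 0.0185% and 0% (edgeR).

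Within classes the day 3 pattern was uneven between clusters. The arterial-like class held 3 clusters: cluster 9, led by Nebl, Stmn2 and Gja5; cluster 10, led by Col8a1 and Alpl; and cluster 16, led by Mgp. Jam3 was read chiefly in cluster 9, at 117 and 117 in vehicle, 48.9 and 53.2 at day 3, and 122 and 104 at day 7, while cluster 10 held 16.7 to 39.2. Cldn5 in cluster 9 was 471 and 578, then 205 and 250, then 500 and 396, and in cluster 16 it was 2279 and 2569, then 1249 and 1696, then 2380 and 2386. In each of the 3 clusters the lowest Cldn5 value was from the day 3 Cre-negative library. In cluster 10 the day 3 Cre-positive library, at 976, stood above the vehicle Cre-positive library, at 946. Cluster 10 made up 15.6% to 44.2% of the class, so the class value also carries that mix.

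Both capillary-like clusters showed the day 3 Cldn5 difference. Cluster 13, led by Slc28a2 and Lnx1 with Lpl, stood at 1280 and 918, then 530 and 612, then 1427 and 1469. Cluster 14, led by Cdkn1c, Tcf15 and Fabp4 with Lpl, stood at 1939 and 1268, then 816 and 907, then 1592 and 1980. Aqp7, Car4, Cfd, Timp4 and Car3 were also among its leading genes, and which tissue these capillary-like cells came from was not tested. Unnamed clusters 2 and 3 scored highest on the capillary list, at 0.47 and 0.55, under the minimum of 0.75 for a name. The unnamed endothelial cells as a whole held Cldn5 at 44.4 to 119, so the capillary-like level is that of clusters 13 and 14 only. Lymphatic-like cells were 3 kinds that differed in junction genes. Cluster 17, led by Coch, Ccl20 and Bmp2 with Madcam1, held Cldn5 at 156 to 518, against 1079 to 1757 in cluster 11, led by Ackr4, and 990 to 1491 in cluster 12, led by Mrc1 and Lyve1. Jam3 was 185 to 362 in cluster 11, 616 to 881 in cluster 12 and 433 to 789 in cluster 17. The lymphatic level of Jam3 was thus lowest in the Ackr4 cluster, and that of Cldn5 lowest in the Madcam1 cluster. Cluster 11 made up 44.2% to 72% of lymphatic-like cells.

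**Figure D4:**
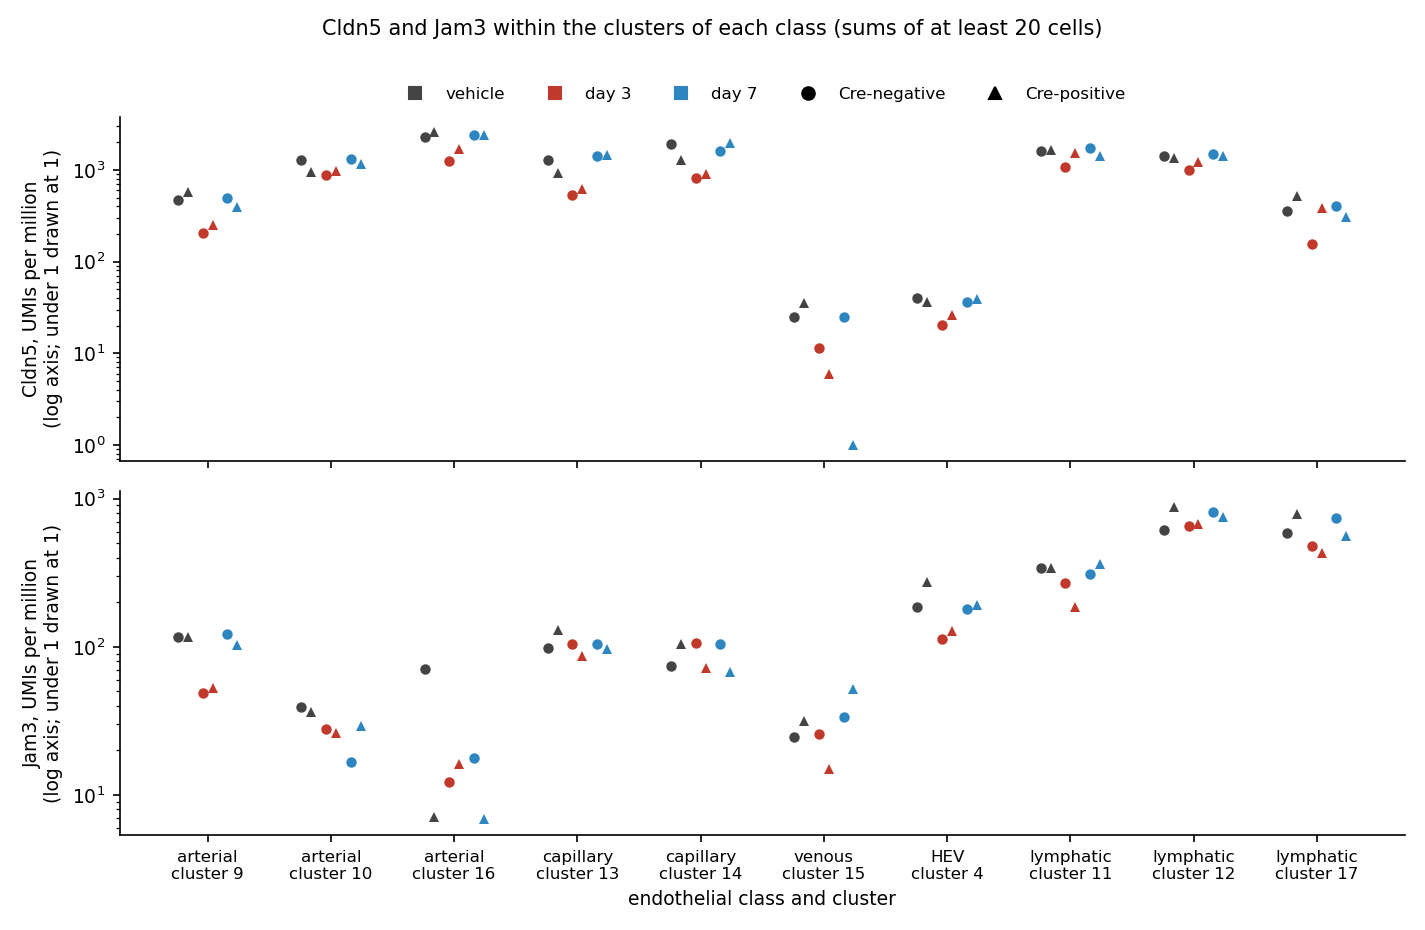
CPM (log axes) of Cldn5 and Jam3 in each cluster of the 5 classes, coloured by treatment and shaped by label; each point is 1 library with at least 20 cells. Within arterial cluster 9 the day 3 points lie lowest for both genes, at 205 and 250 for Cldn5 and 48.9 and 53.2 for Jam3.

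By day 7 no junction gene differed from vehicle past the test in any class. In arterial-like, venous-like, HEV-like and lymphatic-like cells 0% of all genes were called, with 284, 205, 387 and 104 genes at an unadjusted p under 0.05 and 0, 0, 0 and 2 called by DESeq2; in capillary-like cells it was 5 genes (0.0469%). HEV-like Jam3 had a log2 change of -0.24 (SE 0.18, adjusted p = 0.952, edgeR) and arterial-like Jam3 of 0.09 (SE 0.17, adjusted p = 1, edgeR). Arterial-like Cldn5 had -0.26 (SE 0.17, adjusted p = 1, edgeR). Capillary-like Cldn5 had 0.29 (SE 0.18, adjusted p = 0.999, edgeR).

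Cre label moved no junction gene past the test. All genes called by label were 3 of 10987 in HEV-like cells (0.0273%), 2 of 10514 in arterial-like (0.019%), 15 of 10670 in capillary-like (0.141%), 1 of 12688 in lymphatic-like (0.00788%) and 0 of 5292 in venous-like cells (0%; 130 at an unadjusted p under 0.05 and 0 by DESeq2). Cdh5 in HEV-like cells came closest in direction. Its Cre-positive libraries stood at 726, 568 and 592 against 536, 439 and 527 in their Cre-negative counterparts, higher in 3 of 3 pairs. As log2 ratios these were 0.44 (95% counting interval 0.34 to 0.53) in vehicle, 0.37 (0.29 to 0.45) at day 3 and 0.17 (0.08 to 0.26) at day 7. The fitted change was 0.28 (SE 0.14, adjusted p = 1, edgeR). Cdh5 was also higher in all 3 pairs of arterial-like cells (0.25, 0.11 and 0.10), where 7.5% of all genes were, and of capillary-like cells (0.16, 0.23 and 0.03).

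Of 8 junction genes tested in HEV-like cells, Cdh5, Jam3 and F11r were higher in the Cre-positive library at every time, where 16.3% of all genes were, and none was lower at every time, where 8.18% were. HEV-like Jam3 had log2 ratios of 0.56, 0.19 and 0.09. In capillary-like cells Cdh5 and F11r were higher (10.2% of all genes were) and Esam lower (11.9% of all genes were) in all 3 pairs, with Esam at -0.28, -0.13 and -0.12. In the venous-like class Jam2 was lower in all 3 pairs, where 13.1% of all genes were, and no member was higher, where 8.79% were. In lymphatic-like cells no member kept 1 direction, where 6.98% of all genes were higher and 12.7% lower. In arterial-like cells no member was lower in all pairs, where 15.6% were. Other label differences turned with time: capillary-like Cldn5 was -0.58 in vehicle and 0.14 and 0.20 after oxazolone, lymphatic-like Cldn5 -0.16, 0.59 and 0.08, and lymphatic-like Jam3 0.56, -0.17 and -0.26. The lymphatic-like ratios compare different cluster mixes: cluster 11, low in Jam3, was 72% of the class in the vehicle Cre-negative library against 44.2% in Cre-positive, 57.6% against 57.7% at day 3, and 45.3% against 63.7% at day 7. The part of that mix in the ratios was not tested. Each of these compares 2 libraries, so the intervals hold counting error only. The vehicle Cre-positive library differs in sex from its counterpart, and these ratios are over all cells. In cells with Y-linked UMIs alone, again no junction gene passed by label in arterial-like, capillary-like, HEV-like or lymphatic-like cells (edgeR).

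The wider junction genes numbered 52 in 6 lists, of which 39 could be tested in arterial-like, 35 in capillary-like, 29 in venous-like, 39 in HEV-like and 44 in lymphatic-like cells. At day 3, 3 of 39 rose in arterial-like cells, 1 of 39 fell in HEV-like cells, and none passed in the other classes, at day 7 or by label. Of all genes, 131 of 10514 rose in arterial-like cells and 206 of 10987 fell in HEV-like cells, so the HEV count is near that of all genes. The arterial genes were 2 gap junction connexins and an adhesion molecule. Gja5 (connexin 40), an arterial connexin, was 108 and 80.8 in vehicle, 222 and 198 at day 3, and 87.0 and 82.1 at day 7 (log2 change 1.22, SE 0.14, adjusted p = 0.00423, edgeR). Gja4 (connexin 37) was 522 and 366, then 710 and 855, then 572 and 509 (0.90, SE 0.19, adjusted p = 0.0416, edgeR). Mcam (CD146) was 163 and 121, then 261 and 237, then 193 and 152 (0.89, SE 0.15, adjusted p = 0.0156, edgeR). Day 3 lay above all other libraries for each. Gja5 and Gja4 were among the leading genes of arterial cluster 9. That cluster made up 62.6% and 48.5% of the class in vehicle and 48.6% and 74.1% at day 3. The part of this mix in the rises was not tested. Gja5 passed in 12 of 14 alternatives, Mcam in 9 (log2 change 0.47 to 1.05, adjusted p up to 0.535, edgeR or DESeq2) and Gja4 in 7 (0.56 to 1.24, adjusted p up to 0.382, edgeR or DESeq2). Gja4 and Mcam both lost the call without the day 3 Cre-positive library and without either day 7 library, and Gja4 also without the vehicle Cre-positive library (adjusted p = 0.0672, edgeR). With free RNA subtracted as planned, and in cells with Y-linked UMIs alone, no gene passed at day 3 in arterial-like cells. Gja5, Gja4 and Mcam therefore all lost the call there. The summed arterial markers, which share no gene with the lists, were 7620 and 6327 in vehicle and 7662 and 8500 at day 3, and their part was not tested.

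Vcl (vinculin), which joins cadherin complexes to actin under tension, fell in HEV-like cells. Its libraries were 353 and 471 in vehicle, 205 and 226 at day 3, and 263 and 227 at day 7 (log2 change at day 3 -0.94, SE 0.20, adjusted p = 0.0411, edgeR). Both day 7 libraries lay between those of day 3 and those of vehicle. The summed pericyte and smooth muscle markers, given above for Jam3, also fell in these cells at day 3. In vehicle they were likewise higher in the Cre-positive than in the Cre-negative library, and their part in the Vcl change was not tested. The call was lost without either day 3 library (adjusted p = 0.239 and 0.38, edgeR) and in cells with Y-linked UMIs alone (adjusted p = 0.0644, edgeR). Mcam in venous-like cells, at 33.0 and 21.2 CPM in vehicle, 126 and 120 at day 3, and 64.5 and 44.5 at day 7 (4 to 44 UMIs a library), had a log2 change of 2.28 that did not pass (SE 0.44, adjusted p = 0.0603, edgeR). It passed in 8 of 12 alternatives (log2 change 1.97 to 2.54, adjusted p of 0.000864 to 0.924, edgeR or DESeq2).

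**Figure D5:**
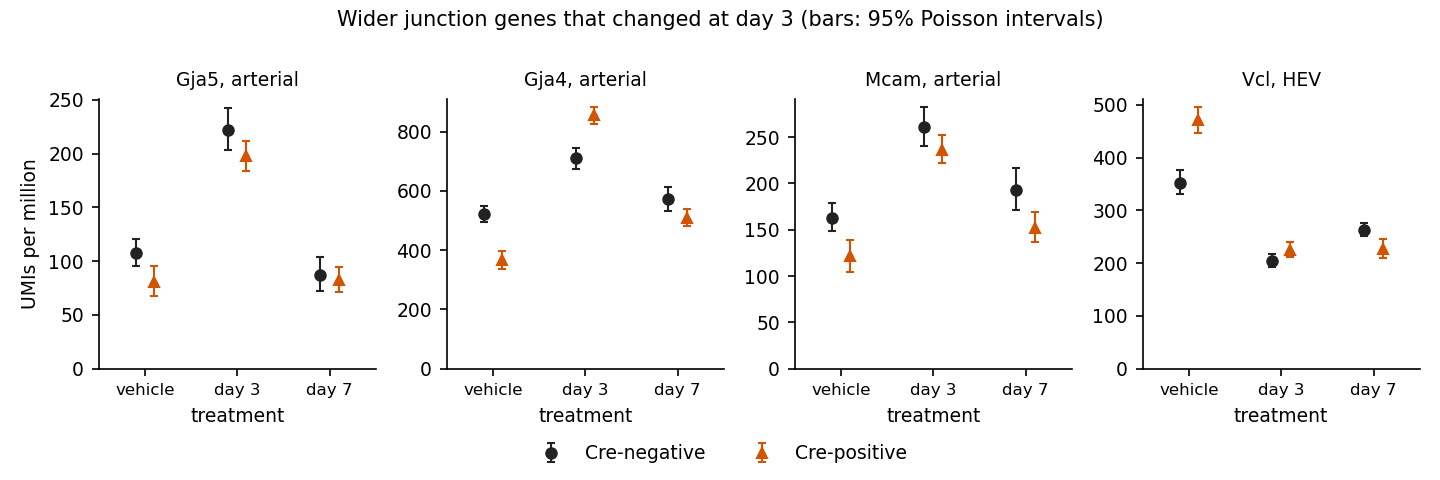
CPM of the 4 wider junction genes that passed the test at day 3, by treatment and label, with exact Poisson intervals at 95%. Gja5, Gja4 and Mcam in arterial-like cells are highest at day 3, and Vcl in HEV-like cells falls from 353 and 471 to 205 and 226.

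Genes of the wider lists also differed between vessel types. Among claudins, Cldn11 was read in lymphatic-like cells (mean 103) and almost nowhere in arterial-like cells (3 UMIs in all), and Cldn15 in capillary-like cells (106) against 1.02 in HEV-like cells. Among scaffolds, Pard3, a polarity protein, averaged 281 in lymphatic-like cells and 0.705 in HEV-like cells, from 17 UMIs, and Cgnl1 (paracingulin) 85.0 against 7.23. HEV-like cells held the most Cdh2 (N-cadherin), at a mean of 135 against 1.27 in capillary-like cells, and Nectin1, at 24.5. Arterial-like cells led for Icam2 (394, lymphatic-like lowest at 131), Mcam (188 against 16.4) and Heg1, a partner of the CCM complex (912 against 93.0). Gja4 averaged 589 in arterial-like cells against 2.04 in venous-like cells, from 4 UMIs, and Gja5 130 against no UMI. Radil, a Rap1 effector, averaged 29.4 in lymphatic-like and 0.845 in capillary-like cells. Low values were not particular to 1 class: Pard3 was also 0.74 to 2.10 in capillary-like and 1.36 to 6.42 in arterial-like cells, and Cldn15 0.73 to 1.66 in lymphatic-like cells. Nor were high values always particular to 1 class. In arterial-like cells Cgnl1 was 51.6 to 86.7 and Cldn15 23.8 to 43.6. Heg1 was 693 to 834 in venous-like cells, and Gja4 89.9 to 198 in lymphatic-like cells.

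Across the 30 sums of library and class, the junction genes were correlated in level to different degrees. On the log2(CPM + 1) scale, Esam and Jam2 had a Pearson correlation of 0.98, Cldn5 and F11r of 0.88, Tjp1 and Cdh5 of 0.82, Pecam1 and Esam of 0.79, Pecam1 and Jam2 of 0.76, and Cdh5 and Jam2 of 0.73. Jam3 ran against Jam2 (-0.85), Esam (-0.81) and Pecam1 (-0.73). The points share 6 libraries and mostly express class, so no p is given. Of 6909 genes outside the lists, the closest were Ednrb, Map4k2 and Ehd1 for Cldn5 (0.95, 0.94 and 0.93), Hecw2, Flt1 and Zfp366 for Esam (0.99, 0.99 and 0.98) and Dach1, Flt1 and Hecw2 for Jam2 (0.98, 0.97 and 0.97). For Jam3 they were Ltb, Gna12 and Sema3a (0.95, 0.91 and 0.88) and for Cdh5 Cav1, Sppl2a and Rflnb (0.97, 0.96 and 0.96). Pecam1 was closest to Mrtfb, Gse1 and Arhgap26 (0.96, 0.95 and 0.94), and F11r to Timp3, Hes1 and Ednrb (0.93, 0.92 and 0.91).

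Outside the endothelium, plasmacytoid dendritic cell-like cells of the CD45 fraction held Cdh5 at 85.1 to 151 CPM and B cell-like cells of that fraction at 0.22 to 0.62. The same dendritic class held 89.8 to 114 in the 5 CD31 libraries that had at least 20 such cells. F11r was read in dendritic cell-like cells at 55 to 110.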

How the data were processed

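Per the labels' protocols, libraries came from a 10x Genomics 3-prime kit. The deposited matrices hold UMI counts (molecules counted by molecular tag) per gene and barcode, every barcode included. The submitters' processing notes name Cell Ranger 7.0.1 and build mm10, while the file headers name Cell Ranger 4; which made these counts, and so whether intronic reads are in them, is not settled here. Whether counting used strand is also not given in the sources used here. Coordinates are from GENCODE M21 (GRCm38), which held 32158 of 32285 gene identifiers. An added feature, mRFP, was left out; it is listed in the 3 Cre-positive CD31 libraries and in the day 7 library labelled Cre-negative, but in neither other Cre-negative one, and what this means for that label was not tested.

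Cells (scanpy 1.11.5) are barcodes of 1000 UMIs and 500 genes or more, with mitochondrial UMIs up to 10%. The automatic Scrublet threshold marked 0, 2 and 3 barcodes in 3 libraries, so the highest scores were removed, 0.8% per 1000 barcodes. In the vehicle Cre-negative CD31 library the removed barcodes had median UMIs of 3932.5 against 4325 in those kept. In the day 3 Cre-positive CD31 library it was 2203 against 3433, while in every other library the removed barcodes were deeper. How many doublets remain was not tested. Cells were clustered on 2000 variable genes without the junction lists (30 components, 20 neighbours, Leiden resolution 1). Clusters were named from listed markers, by score thresholds chosen after the clusters were seen. UMIs summed per library and class (at least 20 cells) went into edgeR 4.0.16 (R 4.3.3), with treatment and label as terms, filterByExpr, TMM scaling and Benjamini-Hochberg adjustment at 0.05. Day 3 and day 7 share the vehicle libraries. The fit was tested on simulated data for the label comparison, not for day 3 or day 7, whose rates are therefore not known. It recovered 96% of genes with a log2 change of 1 for the label comparison in arterial-like cells, 97% in HEV-like, 100% in capillary-like, 83% in lymphatic-like and 32% in venous-like cells; false calls were 6.22%, 2.475%, 3.382%, 3.175% and 1.835% of calls in the same order. Alternatives were DESeq2 1.42.0, its size factors, no low-count filter, no doublet removal, 2000 UMIs per cell, Leiden resolution 2, free RNA subtracted, cells with Y-linked UMIs alone, and each library left out.

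The 9 genes and all lists were chosen with earlier results of these data known. Named were the 9 genes, wider junction genes that passed the test, the 2 genes of each list with the largest ratio between class means (at least 20 CPM in 1 class), and for each member the 3 most correlated other genes with a mean of at least 20 CPM. Those of Tjp1 are not reported here. Intervals cover counting error only.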

Additional observations from a re-analysis of the deposited data

How the results depend on the processing

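The library totals, 2 residual degrees of freedom and 1 library per group limit every comparison, and venous-like cells are too few for small changes. Of the counts of the 9 junction genes passing the test, those by label, by day 7, in venous-like and lymphatic-like cells and between classes stayed the same under each alternative run (free RNA subtracted without haemoglobin was added after seeing the data). At day 3 in arterial-like cells the count of 2 became 1 with DESeq2, 0 with free RNA subtracted at the share that includes haemoglobin, and 0 in cells with Y-linked UMIs alone, and ranged from 0 to 2 with each library left out. In capillary-like cells the count of 0 became 1 (Cldn5) with DESeq2, with no low-count filter and with at least 2000 UMIs per cell, and ranged from 0 to 1 with each library left out. In HEV-like cells the count of 1 became 2 with DESeq2 (Jam3 and Pecam1), 3 with no low-count filter (Cldn5, Jam3 and Pecam1), 2 with no doublet removal (Cldn5 and Jam3) and 0 in cells with Y-linked UMIs alone, and ranged from 0 to 3 with each library left out. The free RNA share that includes haemoglobin was 92.16% in capillary-like cells of the day 3 Cre-positive library, and 2.832% without haemoglobin. In arterial-like cells of the vehicle Cre-positive library these shares were 28.28% and 0.8959%. The cause of the changes in count was not tested. None of the 10 named day 3 changes tried under the alternatives (Gja5, Gja4, Jam3, Mcam and Cldn5 in arterial-like, Cldn5 in capillary-like, and Jam3, Pecam1, Vcl and Cldn5 in HEV-like cells) reversed; smaller changes that passed no test did cross 0. Over all genes, the calls at day 3 in HEV-like cells went from 404 to 1548 with no low-count filter, 103 in cells with Y-linked UMIs alone, and 2 to 2245 with a library left out. In arterial-like cells they went from 207 to 85 with DESeq2, 830 with no low-count filter, 0 with free RNA subtracted, 0 in cells with Y-linked UMIs alone, and 44 to 1230 with a library left out. In capillary-like cells they went from 37 to 17, 163, 0 and 0 under the same 4 settings and 7 to 284 with a library left out, so the calls over all genes depend on which libraries enter. A library left out leaves a group of 1 sample whose spread is assumed to be that of the others. The class with the highest level stayed the same for 8 genes, while Jam2 was highest in venous-like cells with at least 2000 UMIs or no doublet removal. Of 45 class levels, 5 moved by more than the spread between libraries with Leiden resolution 2 (arterial-like Jam3 to 42.5 CPM), 6 with free RNA subtracted, all in capillary-like cells, and 2 with no doublet removal (lymphatic-like Esam to 44.6 and Jam2 to 12.3). Venous-like cells with Y-linked UMIs alone could not be fitted. No paired analysis was possible because each group is 1 library, so replicate numbers pair nothing; treatment was a term in the label test, and the library was a block between classes.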
